A study of Mus musculus with 36 samples.

Results

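Hepatokines are proteins that the liver releases into blood and that act on other tissues. The genes described here are 10 that code for such factors, Inhba, Inhbc, Inhbe, Fst, Fgf21, Gdf15, Lect2, Enho, Ahsg and Fetub, taken by gene symbol among the probes of the array. The symbols were listed with earlier results of these data known, so the counts over them are a description. They were read by 11 probes (2 for Enho), of 34678 probes tested, and made up 10 of the 23054 genes tested. All 10 passed the filter on dim probes, and 9 were well above background on all 36 arrays, with Fgf21 the exception (32 of 36).

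The study asked how loss of the insulin receptor in hepatocytes alters the liver transcriptome at 3 times of day. Liver of male mice, 11 weeks old and on chow without restriction, was taken at ZT8, ZT12 or ZT16, in hours after lights-on, with lights off at ZT12. The knockout mice (IRhep-/-) carried loxP sites around the fourth exon of Insr and a tamoxifen-inducible Cre driven by the transthyretin promoter, in crosses with C57BL/6J mice. Their controls (IRhep+/+) had an intact receptor, and each of the 6 groups held 6 arrays. Neither the time of tamoxifen treatment nor the Cre status and treatment of the controls is in the labels. They number the replicates without saying that each is a separate mouse, so p-values measure the spread between these arrays.

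Insulin acts on hepatocytes through its receptor, the kinases AKT and the FoxO transcription factors, and several hepatokines are known to respond to insulin, fasting or cell stress. Activins are dimers of inhibin beta subunits that signal through type II and type I receptors to SMAD proteins, and follistatin binds activins and keeps them from their receptors. FGF21 acts on cells that carry the co-receptor beta-klotho, and GDF15 acts on a receptor of the hindbrain.

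Values are log2 of the array's signal with its own 75th percentile set to 0, so a difference of 1 is a doubling. They compare groups for 1 probe and do not rank genes by level. Differences are knockout minus control from limma with wash batch as a term, a gene is called at a Benjamini-Hochberg adjusted p under 0.05 over all 23054 genes, and exact permutation tests are two-sided with 0.00216 as the smallest p that 6 against 6 arrays allow.

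Insr itself fell by 1.77, 1.88 and 1.65 on the log2 scale in the ZT8, ZT12 and ZT16 knockouts, with no overlap between groups at any time. Between 53.7% and 63.1% of spots on an array were well above background and none was saturated. The 6 hepatocyte markers had a mean log2 level of 7.21 to 8.12 on every array, so every array held strong hepatocyte signal. Since levels are not ranked between genes, this is no test for other tissue in the samples. Of these 6, Alb and Ttr, which code for albumin and transthyretin, were called lower in the knockouts at each time, with log2 differences of -0.41, -0.35 and -0.39 and of -1.12, -1.02 and -0.97. Tat and Hnf4a were called higher at ZT12 (0.55 and 0.31), and the other 2 were not called. The mean log2 level of the 6 overlapped between genotypes at ZT8 (7.21 to 7.63 in knockouts, 7.53 to 7.69 in controls). It also overlapped at ZT12 (7.62 to 7.98 and 7.68 to 7.93), but not at ZT16 (7.70 to 7.81 and 7.87 to 8.12). The log2 of the 6 markers' summed signal, in which the brightest markers weigh most, did not overlap between genotypes at any time. It ran from 10.56 to 11.00 in knockouts and from 11.08 to 11.29 in controls at ZT8, from 10.83 to 11.15 and 11.24 to 11.36 at ZT12, and from 10.92 to 11.06 and 11.28 to 11.46 at ZT16. Its part in the results was not tested. In whole liver RNA, fewer cells of a type and less RNA per cell cannot be told apart. Replicate 3 of the ZT8 knockouts was the lowest of its 6 arrays for 7 of the 10 genes and the highest for Gdf15, and the calls it decides are given with and without it.

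More of the hepatokine genes were called than not at each time. At ZT8, 7 of 10 were called (3 higher and 4 lower in the knockouts), where 35.4% of all genes were called (16.7% higher, 18.7% lower). At ZT12, 9 of 10 were called (4 higher, 5 lower), against 42.2% of all genes (19.6% higher, 22.6% lower). At ZT16, 7 of 10 were called (3 higher, 4 lower), against 39.9% (19.9% higher, 20.0% lower). Without replicate 3 of the ZT8 knockouts, the ZT8 count was 6.

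The differences were mostly large ones. Over the 10 genes the absolute log2 difference had a median of 1.12 (ZT8), 2.12 (ZT12) and 1.80 (ZT16), and over all genes one of 0.25, 0.29 and 0.28. Called and changed at least 2-fold were 5 of 10 (ZT8), 8 (ZT12) and 6 (ZT16), beside 6.15%, 7.29% and 7.03% of all genes. At ZT8 5 of 10 had groups that did not overlap, at ZT12 9 and at ZT16 7, beside 15.5%, 21.3% and 19.2% of all genes.

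A call at all 3 times in 1 direction was made for 7 of the 10, beside 19.4% of all genes. Higher throughout were Fst, Fetub and Enho. Lower throughout were Inhba, Inhbc, Inhbe and Lect2. Without replicate 3 of the ZT8 knockouts, Inhba was not called at ZT8 (limma adjusted p = 0.0703) and so not at all 3 times. Fgf21 (lower) and Gdf15 (higher) passed the test at ZT12 and missed it at ZT8 and ZT16, and Ahsg missed it at all 3 times.

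**Figure D1:**
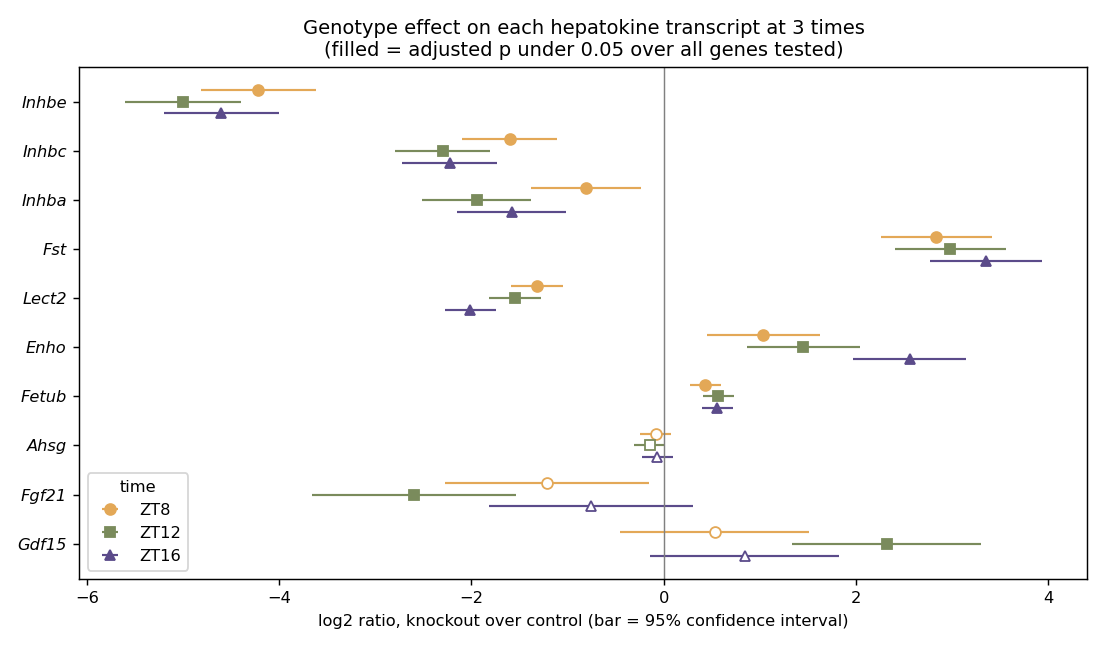
Log2 ratio of knockout over control for each of the 10 hepatokine genes (rows) at ZT8, ZT12 and ZT16 (symbols), with 95% confidence intervals, from 6 arrays per group. Filled symbols are called: Inhbe lies between -4.22 and -5.00, Fst between 2.83 and 3.35, and Ahsg near 0 with open symbols.

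RefSeq promoters (build GRCm38.p6, 250 bases before the annotated start, written 5′ to 3′ on the gene's strand) were at hand for 8 of the 10 genes, with 10 starts. The 3 below are shown because Inhbe and Fgf21, both lower in the knockouts at ZT12, hold the same 8 letters, and because Inhbc lies next to Inhbe on chromosome 10, 4473 bases away with no annotated gene between them. Capitals mark matches to the motifs searched, on both strands, and lower case the rest. Inhbe is chr10:127351849-127352098 (minus strand), Fgf21 is chr7:45615491-45615740 (minus strand) and Inhbc is chr10:127370549-127370798 (minus strand).
Inhbe: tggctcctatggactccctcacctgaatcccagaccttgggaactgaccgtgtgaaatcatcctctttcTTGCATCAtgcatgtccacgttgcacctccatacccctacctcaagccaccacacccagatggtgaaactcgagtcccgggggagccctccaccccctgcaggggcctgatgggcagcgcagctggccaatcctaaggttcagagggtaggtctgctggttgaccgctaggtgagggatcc
Fgf21: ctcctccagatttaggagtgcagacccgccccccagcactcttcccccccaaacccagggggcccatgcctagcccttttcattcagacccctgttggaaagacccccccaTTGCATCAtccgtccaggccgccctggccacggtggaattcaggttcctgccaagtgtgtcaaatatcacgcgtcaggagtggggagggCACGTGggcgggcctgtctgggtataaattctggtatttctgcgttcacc
Inhbc: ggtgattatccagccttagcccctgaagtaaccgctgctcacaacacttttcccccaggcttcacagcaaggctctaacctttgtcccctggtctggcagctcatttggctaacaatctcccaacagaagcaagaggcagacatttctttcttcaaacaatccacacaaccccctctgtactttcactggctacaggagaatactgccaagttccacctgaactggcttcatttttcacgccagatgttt
The first motif was the C/EBP-ATF response element TGATGNAA, which amino acid and endoplasmic reticulum stress factors are known to bind and which 3.45% of 32851 promoters of this length hold. It matched on the opposite strand as TTGCATCA in Inhbe, from -181 to -174, and in Fgf21, from -139 to -132. The E-box CACGTG, held by 6.02% of promoters, occurred in Fgf21 from -50 to -45 and at the second start of Gdf15, from -83 to -78. The FoxO element TGTTTAC (3.17%) occurred at the second start of Fetub, from -236 to -230. The cAMP response element TGACGTCA (1.55%) and the PPAR response element, AGGTCA repeated after 1 base (0.0335%), matched none of these promoters. Matches are descriptions of letters in a window, not sites of binding.

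Inhbe, which codes for the subunit of activin E and is made mainly by hepatocytes, showed the largest change of the 10. In controls the log2 signal ran from 2.36 to 3.65 with a median of 3.14 at ZT8, from 2.22 to 3.22 (median 2.81) at ZT12 and from 2.12 to 3.53 (median 2.95) at ZT16. In knockouts it ran from -2.31 to -0.19 (median -1.08) at ZT8, from -2.80 to -1.53 (median -2.39) at ZT12 and from -1.99 to -1.28 (median -1.78) at ZT16. Every knockout array lay below every control array, across times as well as within them.

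The fitted ratio left Inhbe at 5.38% of control at ZT8, 3.12% at ZT12 and 4.12% at ZT16. As log2 differences these were -4.22 ± 0.29 (SE, n = 6 against 6, limma adjusted p = 2.67e-12), -5.00 ± 0.29 (4.87e-14) and -4.60 ± 0.29 (2.74e-13). Each exact permutation p was 0.00216. All 36 arrays were well above background for this probe, whose lowest raw signal, 56.6 intensity units, was in a ZT12 knockout.

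Inhbc, the neighbouring gene for the subunit of activin C, also fell at all 3 times, by a smaller amount. Control values ran from 1.51 to 2.09 (median 1.81) at ZT8, from 1.97 to 2.65 (median 2.26) at ZT12 and from 1.74 to 2.41 (median 2.25) at ZT16. Knockout values ran from -0.96 to 0.78 (median 0.38) at ZT8, from -0.78 to 0.51 (median 0.23) at ZT12 and from -0.84 to 0.78 (median -0.03) at ZT16. The groups did not overlap at any time, and the knockouts were the more variable, with SDs of 0.484 to 0.632 against 0.184 to 0.264 in controls. The log2 differences were -1.60 ± 0.24 (SE, limma adjusted p = 4.68e-06), -2.30 ± 0.24 (6.96e-09) and -2.23 ± 0.24 (1.35e-08), or 32.9%, 20.3% and 21.4% of control.

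Inhba codes for the beta A subunit, which forms activin A and is expressed by many cell types. Its control levels stayed close together over the day, with medians of 0.64 at ZT8 (range 0.11 to 0.86), 0.47 at ZT12 (0.17 to 1.67) and 0.64 at ZT16 (0.27 to 0.95). Knockout medians were -0.16 at ZT8 (range -1.07 to 0.40), -1.26 at ZT12 (-2.44 to -0.13) and -0.89 at ZT16 (-1.51 to -0.76). The groups overlapped at ZT8, where 4 of 6 knockout arrays lay below all controls, and did not overlap at ZT12 or ZT16.

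Inhba differed by -0.81 ± 0.28 (SE) at ZT8 (limma adjusted p = 0.0232), by -1.94 ± 0.28 at ZT12 (1.56e-06) and -1.58 ± 0.28 at ZT16 (3.69e-05). The ZT8 call did not hold without replicate 3 of the ZT8 knockouts (-0.67, adjusted p = 0.0703), without replicate 5 (0.0536) or 6 (0.0683) of that group, or without replicate 5 of the ZT8 controls (0.0642). It also did not hold when only the 2 groups compared were fitted (adjusted p = 0.0585).

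Fst codes for follistatin, the secreted antagonist of activins, and moved opposite to the 3 activin subunits. Control values ran from -2.40 to -1.40 (median -1.64) at ZT8, from -1.90 to -0.40 (median -1.13) at ZT12 and from -2.39 to -0.82 (median -1.89) at ZT16. Knockout values ran from 0.45 to 1.69 (median 0.85), from 0.76 to 2.71 (median 1.98) and from 0.96 to 1.99 (median 1.66) at the same times. No knockout array overlapped any control array, and the rise was 7.13-fold at ZT8, 7.90-fold at ZT12 and 10.2-fold at ZT16. The log2 differences were 2.83 ± 0.28 (SE, limma adjusted p = 3.46e-09), 2.98 ± 0.28 (1.08e-09) and 3.35 ± 0.28 (9.49e-11).

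**Figure D2:**
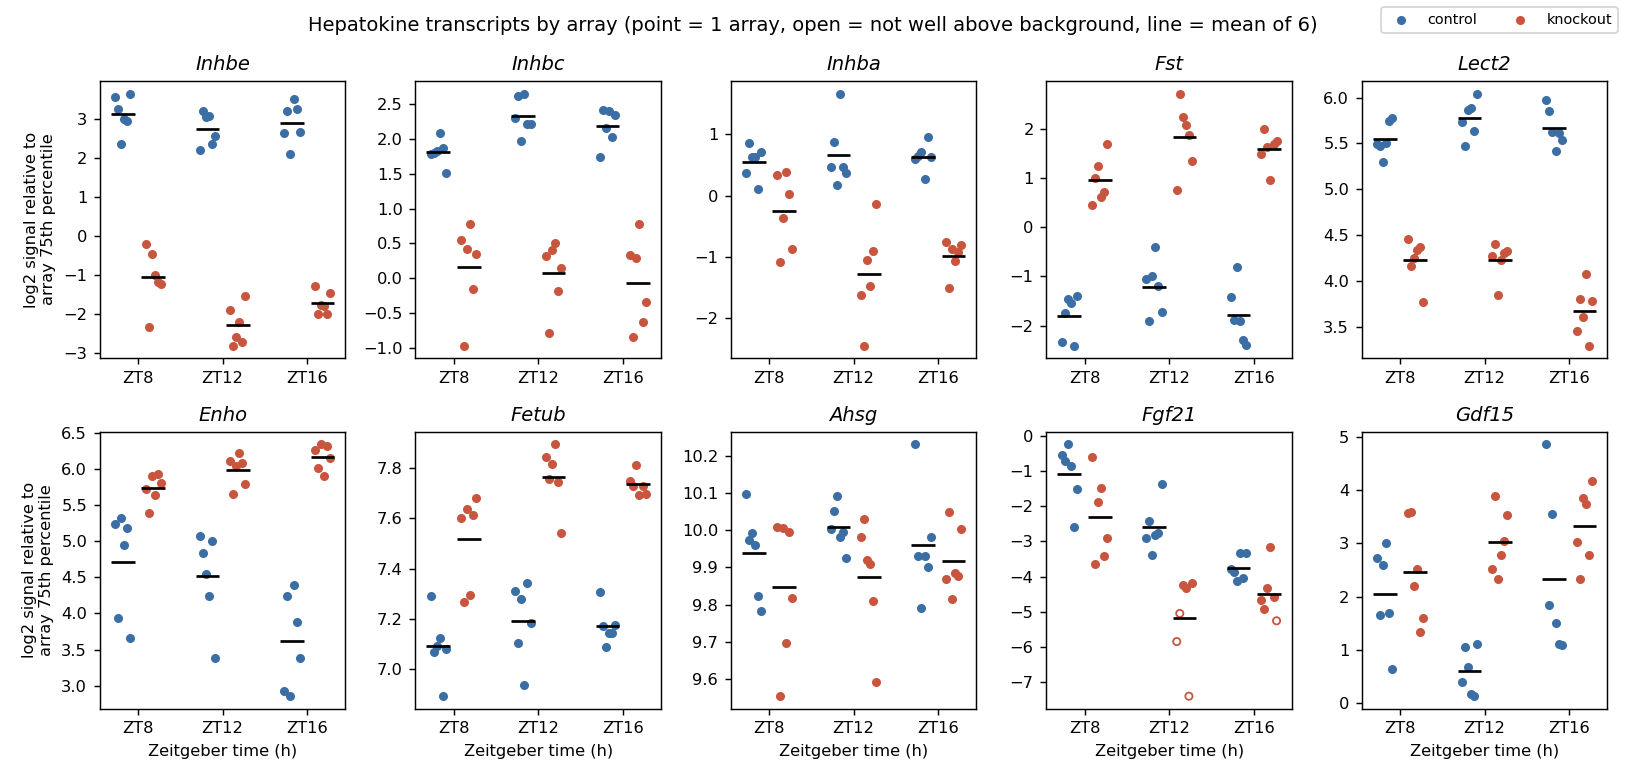
Log2 signal relative to the array's 75th percentile (vertical axes, scaled per gene) for each of the 36 arrays, by time and genotype, with group means as lines and open circles where the probe was not well above background. Inhbe, Inhbc, Fst, Lect2 and Enho separate the genotypes at all 3 times, whereas Ahsg ranges overlap throughout.

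No other ligand or antagonist of the activin and BMP family was called lower. Of 15 listed, 12 were tested, and 4 rose at ZT8 and 6 at each of the later times. Beside these stand 16.7%, 19.6% and 19.9% of all genes called higher. For the lists below, the shares of all genes called in either direction were 35.4% (ZT8), 42.2% (ZT12) and 39.9% (ZT16). The median log2 difference of these 12 was 0.12, 0.52 and 0.46, against 0.01, -0.02 and 0.00 over all genes. Bmp2, a BMP ligand of the sinusoidal endothelium, rose by 0.37, 0.71 and 0.50 on the log2 scale, and Bambi, a decoy receptor, by 0.43, 0.70 and 0.52. Gdf2, which codes for BMP9, was called at ZT12 (0.49) and ZT16 (0.37) and stood at 0.21 at ZT8.

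Inhbb, the remaining inhibin beta subunit on the array, was chosen for mention after its values were seen. It was higher by 0.86 ± 0.26 (SE) at ZT8 (limma adjusted p = 0.01) and by 0.91 ± 0.26 at ZT12 (0.0055), and by 0.47 ± 0.26 at ZT16, which was not called (0.15). The follistatin-like genes Fstl1 and Fstl3, named likewise, were not called at any time, with differences of 0.06, 0.55 and 0.49 and of -0.21, 0.20 and 0.38. Follistatin itself was the antagonist with the largest difference among those tested.

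Receptors and SMADs changed in both directions and by less. Of 21 listed, 20 were tested, with 6 higher and 4 lower at ZT8, 6 and 3 at ZT12, and 2 and 3 at ZT16. The ZT12 count lay near the share of all genes called (42.2%) and the ZT16 count below it (39.9%). The median log2 difference of the 20 was 0.12, 0.15 and -0.0048. Acvr1b, the type I activin receptor ALK4, fell by 0.87 ± 0.10 (SE) at ZT8 and 0.50 ± 0.10 at ZT12, and stood at -0.16 ± 0.10 at ZT16, not called. Acvr2a, a type II activin receptor, was lower at ZT8 (-0.24) and ZT16 (-0.49) and stood at -0.17 at ZT12. Acvr2b, the other type II activin receptor, was higher at ZT8 (0.85) and ZT12 (0.95) and stood at 0.45 at ZT16, not called. The TGF-beta receptors Tgfbr2 (0.98, 0.69 and 0.88) and Tgfbr3 (0.82, 1.11 and 0.78) were higher at all 3 times.

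**Figure D3:**
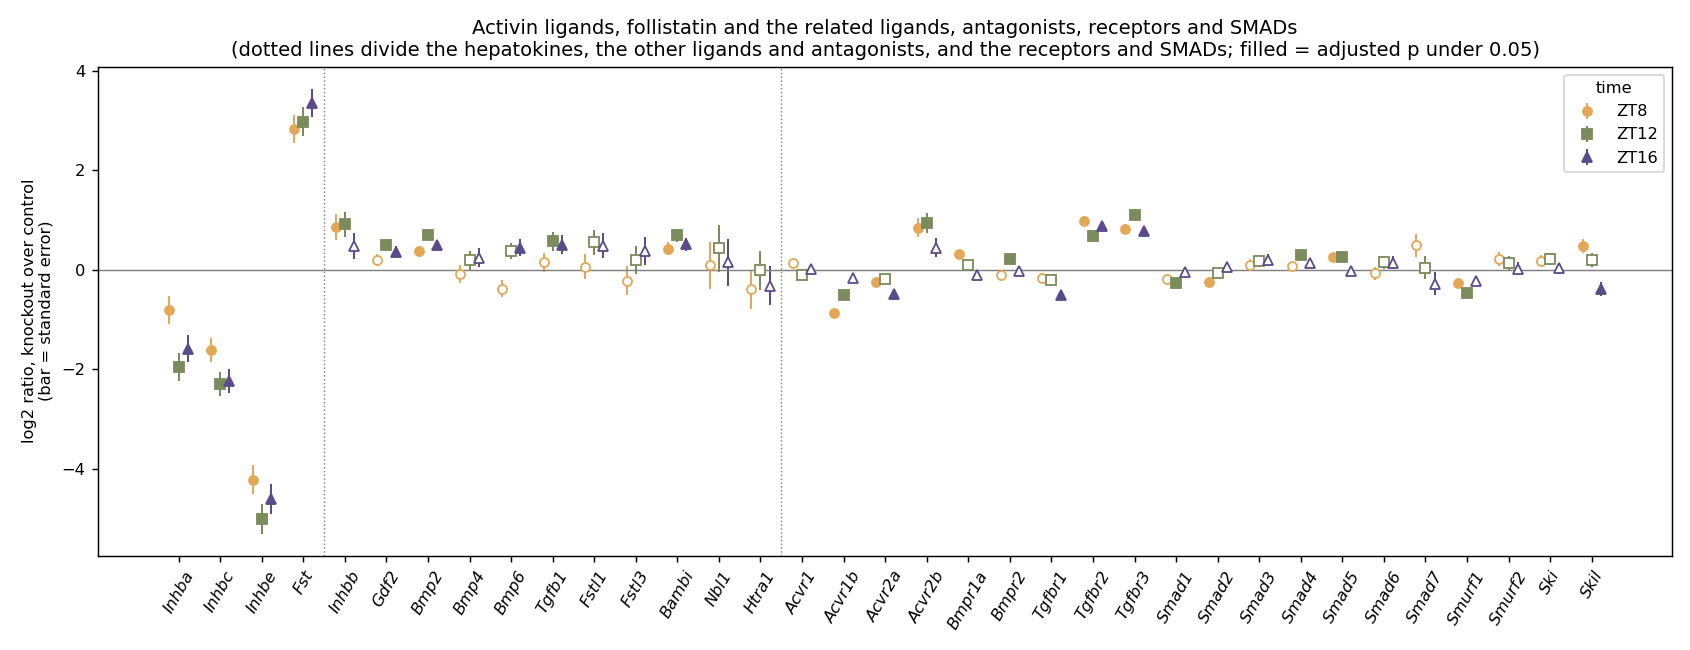
Log2 ratio of knockout over control with standard errors (vertical axis) for Inhba, Inhbc, Inhbe and Fst, then for the other ligands and antagonists, then for receptors and SMAD-pathway genes, at 3 times. The first 4 genes lie between -5.00 and 3.35, whereas the other genes plotted lie between -0.87 (Acvr1b) and 1.11 (Tgfbr3).

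Some markers of non-hepatocyte cells differed between genotypes, where 35.4% (ZT8), 42.2% (ZT12) and 39.9% (ZT16) of all genes were called. At ZT8 the macrophage, endothelial, stellate cell, bile duct, fat and mesothelial counts lay below that share. The stellate cell and macrophage counts at ZT12 and ZT16 lay near it. Of 8 macrophage markers, 2 were called higher at ZT8, 4 at ZT12 and 3 at ZT16, and none lower. Over all genes, 16.7%, 19.6% and 19.9% were called higher. Their summed log2 level over the 3 times ran from 5.20 to 7.42 in controls and from 6.08 to 8.43 in knockouts. The genotypes overlapped at each time. Of 6 endothelial markers, 0, 5 and 4 were called higher. Their summed levels over the 3 times were 4.62 to 5.29 in controls and 4.72 to 5.52 in knockouts. At ZT12 these levels did not overlap, at 4.62 to 4.95 in controls and 4.99 to 5.52 in knockouts. Of 8 stellate cell and fibroblast markers, 0, 3 and 3 were called higher and 0, 1 and 1 lower. Their summed levels over the 3 times were 5.29 to 6.40 in controls and 5.40 to 6.73 in knockouts. At ZT12 the genotypes did not overlap here either, at 5.29 to 6.07 in controls and 6.14 to 6.34 in knockouts. Of 3 lymphocyte markers tested, 2 were called higher at each time and 1 lower at ZT12, and of 3 red cell genes 0, 2 and 1 were called higher and 1 lower each time. Of 5 bile duct markers 1 was called lower at ZT12 and 1 higher at ZT16, of 4 fat markers 2 were called lower at ZT12, and none of 3 mesothelial markers was called. Cela2a, a pancreatic elastase gene and the 1 of 4 pancreas markers that was tested, was higher at each time, by 1.34, 2.13 and 3.48. Their part in the changes of Fst, Inhba, Gdf15 and Bmp2 was not tested.

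Fgf21, a fasting-responsive hormone of the liver, was lower in the knockouts at ZT12. At that time control values ran from -3.38 to -1.36 (median -2.78) and knockout values from -7.40 to -4.18 (median -4.69), with no overlap. The difference was -2.60 ± 0.52 (SE, limma adjusted p = 0.000169, exact permutation p = 0.00216), or 16.5% of control. Only 3 of the 6 ZT12 knockout arrays were well above background for this probe, so the depth of the fall rests on dim signals, with a median raw signal of 16.2 intensity units. With normexp background correction it was -0.97 (adjusted p = 0.00194) and in the authors' table -1.29 (adjusted p = 0.000729).

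At ZT8 Fgf21 ranged from -2.60 to -0.24 (median -0.79) in controls and from -3.63 to -0.60 (median -2.39) in knockouts. At ZT16 it ranged from -4.13 to -3.32 (median -3.82) and from -5.26 to -3.15 (median -4.62), with 5 of 6 knockout arrays well above background. The groups overlapped at both times, and neither difference was called, at -1.21 ± 0.52 (SE, limma adjusted p = 0.0684) and -0.75 ± 0.52 (0.257). The ZT8 difference passed the threshold with normexp (-0.78, adjusted p = 0.0146), in the authors' table and with slide as a random block. It was also called when any 1 of 4 arrays was left out, which were replicates 2 and 4 of the ZT8 knockouts, replicate 4 of the ZT8 controls and replicate 2 of the ZT12 knockouts (-1.59 to -1.19, adjusted p = 0.0169 to 0.0485).

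Fgf21 also fell over the day in both genotypes. In controls it fell by 1.53 ± 0.52 (SE, limma adjusted p = 0.0425) from ZT8 to ZT12, a call lost when any 1 of 10 arrays was left out (adjusted p up to 0.107), and fell by 2.65 ± 0.52 (0.000227) from ZT8 to ZT16. In knockouts the corresponding log2 differences were -2.91 ± 0.53 (0.000335) and -2.19 ± 0.52 (0.00149). From highest to lowest group mean the order was control ZT8, knockout ZT8, control ZT12, control ZT16, knockout ZT16 and knockout ZT12. Each neighbour in this order overlapped the next. The size of the knockout fall to ZT12, and the last place of that group, rest on the 3 arrays that were not well above background (-7.40, -5.85 and -5.05), since the other 3 lay between -4.33 and -4.18. With only the groups compared, the fall to ZT12 was not called (-2.84, adjusted p = 0.0786).

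The genes of FGF signalling changed in both directions. Of 9 tested (11 listed), 4 were higher and 2 lower at ZT8, 4 and 3 at ZT12, and 3 and 4 at ZT16, with a median log2 difference of 0.14, 0.15 and 0.02. Klb, which codes for the co-receptor beta-klotho, was higher by 0.39 ± 0.12 (SE) at ZT8 and 0.87 ± 0.12 at ZT12 and stood at 0.18 at ZT16, not called. Fgfr3, an FGF receptor, fell by 1.00, 0.72 and 0.72. Fgf1, a growth factor with metabolic effects, stood at 0.01 at ZT8 and fell by 0.98 at ZT12 and 2.01 at ZT16. Fgf23, the phosphate-regulating endocrine FGF, fell by 1.13, 1.32 and 0.60.

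Genes known as targets of factors that drive Fgf21 did not move as 1 group. Of 20 PPARα targets, 8 were higher and 3 lower at ZT8, 3 and 9 at ZT12, and 2 and 8 at ZT16, and the median log2 difference was 0.30, -0.12 and -0.18. Ppara itself stood at -0.30 at ZT8 and fell by 0.93 at ZT12 and 0.89 at ZT16. Creb3l3, a liver factor that works with PPARα on Fgf21, fell by 0.43, 0.97 and 0.89. Fabp1, a fatty acid carrier, fell by 0.47, 0.77 and 0.88, and Slc25a20, the mitochondrial carnitine carrier, by 0.33, 0.72 and 0.97. None of the 8 targets called higher at ZT8 is among the genes named here, so these examples show 1 side of the list.

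Of 12 ChREBP targets, 4 were higher and 4 lower at ZT8, and 2 higher and 7 lower at both ZT12 and ZT16 (median log2 difference -0.07, -0.49 and -0.46). Thrsp, a lipogenic nuclear protein, fell throughout, with log2 differences of -2.86, -4.46 and -5.08, as did Pklr, liver pyruvate kinase, with -1.56, -2.42 and -2.46. Khk, ketohexokinase, fell by 0.96, 1.19 and 1.37. Tkfc, triokinase, stood at -0.15 at ZT8 and fell by 1.16 and 1.05 at the later times. None of these 4 genes was called higher, so they too show 1 side of their list.

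Gdf15, a stress-induced member of the TGF-beta family, was higher in the knockouts at ZT12. Control values there ran from 0.13 to 1.12 (median 0.54) and knockout values from 2.32 to 3.90 (median 2.92), with no overlap. The difference was 2.32 ± 0.48 (SE, limma adjusted p = 0.000265, exact permutation p = 0.00216), or 4.99-fold. This control group was the lowest of the 6, and its arrays overlapped those of the next group in the order, the ZT8 controls.

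At ZT8 Gdf15 ran from 0.64 to 3.00 (median 2.14) in controls and from 1.34 to 3.59 (median 2.36) in knockouts. At ZT16 it ran from 1.09 to 4.87 (median 1.67) in controls and from 2.33 to 4.18 (median 3.38) in knockouts. The groups overlapped at both times, and the control array at 4.87, replicate 6, was the highest of all 36. The differences were 0.53 ± 0.48 (SE, 95% interval -0.45 to 1.52, limma adjusted p = 0.417) and 0.84 ± 0.48 (-0.14 to 1.82, adjusted p = 0.167). Without replicate 6 of the ZT16 controls the ZT16 difference was 1.34 and was called (adjusted p = 0.0184), and with array weights it was 1.39 (0.0059).

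Over time in controls, Gdf15 fell by 1.46 ± 0.48 from ZT8 to ZT12 (SE, limma adjusted p = 0.0365) and was higher at ZT16 than at ZT12 by 1.89 ± 0.48 (0.0236). The first call was lost when any 1 of 9 arrays was left out (adjusted p up to 0.0946). The second was lost when any 1 of 4 was, among them replicate 6 of the ZT16 controls (1.38, adjusted p = 0.116). These 2 comparisons share the ZT12 controls. In knockouts the 3 times overlapped, and no time difference was called, the largest being 0.74 ± 0.48 from ZT8 to ZT16 (adjusted p = 0.281).

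ATF4 targets, a set of stress genes to which Gdf15 and Fgf21 are often assigned, gave 2 higher and 1 lower of 19 tested at ZT8, 6 and 1 at ZT12, and 8 and 1 at ZT16. Over all genes 35.4%, 42.2% and 39.9% were called. The ZT8 and ZT12 counts in either direction lay below that share and the ZT16 count somewhat above it. Called higher alone were 16.7%, 19.6% and 19.9% of all genes. The targets called higher lay below that share at ZT8 and above it at ZT12 and ZT16. The median log2 difference of the 19 was 0.09, 0.07 and 0.40. Trib3, a pseudokinase induced by stress, stood at 0.11 at ZT8 and was higher by 1.87 ± 0.26 (SE) at ZT12 and 2.29 ± 0.26 at ZT16. Sesn2, a stress-induced inhibitor of mTORC1, was higher by 0.27, 0.56 and 0.40, and Ppp1r15a, a phosphatase subunit, by 0.71, 0.88 and 0.46. Atf5, a stress transcription factor, stood at 0.09 and -0.18 and was higher by 0.86 at ZT16. Atf4 itself, chosen after its values were seen, was not called, at -0.16, 0.05 and 0.05.

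Lect2 codes for a leukocyte chemotactic protein secreted by hepatocytes. Control values ran from 5.30 to 5.78 (median 5.50) at ZT8, from 5.47 to 6.04 (median 5.80) at ZT12 and from 5.42 to 5.98 (median 5.62) at ZT16. Knockout values ran from 3.77 to 4.46 (median 4.29), from 3.85 to 4.40 (median 4.29) and from 3.29 to 4.07 (median 3.70). No knockout array reached the control range at any time. Lect2 differed by -1.32 ± 0.13 (SE) at ZT8 (limma adjusted p = 3.39e-09), by -1.55 ± 0.13 at ZT12 (1.23e-10) and -2.01 ± 0.13 at ZT16 (4.73e-13), or 40.1%, 34.2% and 24.8% of control.

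Enho codes for adropin, a small secreted peptide with effects on fuel use. Its control values ran from 3.66 to 5.32 (median 5.07) at ZT8, from 3.38 to 5.07 (median 4.69) at ZT12 and from 2.85 to 4.39 (median 3.63) at ZT16. Knockout values ran from 5.39 to 5.93 (median 5.77), from 5.66 to 6.23 (median 6.06) and from 5.91 to 6.34 (median 6.21). The groups never overlapped, though at ZT8 the highest control and the lowest knockout were close, and the controls were the more variable, with SDs of 0.636 to 0.726 against 0.174 to 0.216.

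The rise of Enho was 2.05-fold at ZT8, 2.74-fold at ZT12 and 5.90-fold at ZT16. As log2 differences these were 1.04 ± 0.29 (SE, limma adjusted p = 0.00536), 1.45 ± 0.29 (0.000148) and 2.56 ± 0.29 (2.42e-08). The second probe, which overlaps the first by 48 bases and is no independent measure, gave 1.02, 1.45 and 2.55.

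Lect2 and Enho were the 2 of the 10 genes whose genotype effect differed between times by the F test, which 8.46% of all genes passed (limma adjusted p = 0.0385 and 0.033). From ZT8 to ZT16 the log2 genotype effect on Enho grew by 1.53 ± 0.41 (SE, adjusted p = 0.0138), and that on Lect2 moved by -0.69 ± 0.19 (0.0147). These were the 2 of 10 called in that comparison, beside 9.75% of all genes. The F test call was lost when any 1 of 10 arrays (Enho, adjusted p up to 0.0808) or any 1 of 15 (Lect2, up to 0.0968) was left out, whereas the ZT16 minus ZT8 differences were called without any 1 array. In controls Enho fell by 1.11 ± 0.29 from ZT8 to ZT16 (adjusted p = 0.00396). In knockouts the corresponding rise of 0.42 ± 0.29 was not called (0.313).

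In knockouts Lect2 fell by 0.56 ± 0.13 from ZT12 to ZT16 (SE, limma adjusted p = 0.00405) and by 0.56 ± 0.13 from ZT8 to ZT16 (0.0013). In controls its ZT16 minus ZT8 difference was 0.13 ± 0.13 (0.53). Genotype differences were largest at ZT12 for Fgf21, Gdf15 and Inhba, and also for Inhbe, Inhbc, Fetub and Ahsg (the last not called). For Fgf21, Gdf15 and Inhba the difference in effect from ZT8 to ZT12 was -1.39 ± 0.74, 1.79 ± 0.69 and -1.14 ± 0.40 (SE). None was called (limma adjusted p = 0.449, 0.227 and 0.172). None of the 10 was called in that comparison, beside 1.25% of all genes, and 2 of them (Gdf15 and Inhba) had an unadjusted limma p under 0.05.

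Between times, 7 of the 10 were called in at least 1 genotype, 3 in controls and 5 in knockouts. In controls, 2 were called from ZT8 to ZT12 (both lower, Fgf21 and Gdf15, beside 14.8% of all genes), 1 from ZT12 to ZT16 (Gdf15, higher, 3.62%) and 2 from ZT8 to ZT16 (both lower, Fgf21 and Enho, 26.6%). In knockouts, 4 were called from ZT8 to ZT12 (Fetub higher, Fgf21, Inhba and Inhbe lower, 13.2%), 1 from ZT12 to ZT16 (Lect2, lower, 12.6%) and 4 from ZT8 to ZT16 (Fetub higher, Fgf21, Inhba and Lect2 lower, 28.9%). The comparisons within a genotype share arrays. Without replicate 3 of the ZT8 knockouts, Fetub was called in neither comparison with ZT8, and Inhbe was also called from ZT8 to ZT16 (-0.90, limma adjusted p = 0.0109). Calls lost when any 1 of several arrays was left out were Fetub from ZT8 to ZT12 (23 arrays) and to ZT16 (6), and Inhba from ZT8 to ZT12 (2) and to ZT16 (23), with adjusted p up to 0.118, 0.131, 0.0614 and 0.153.

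Ahsg and Fetub, which code for fetuin-A and fetuin-B, lie 18.93 kb apart on chromosome 16. Fetuin-A is known as an inhibitor of insulin receptor signalling and fetuin-B as a protease inhibitor needed for fertilisation. They did not change alike. Ahsg ran from 9.78 to 10.23 over the 18 control arrays and from 9.55 to 10.05 over the 18 knockout arrays, overlapping at every time, and its differences were -0.08 ± 0.08 (SE, 95% interval -0.24 to 0.08), -0.14 ± 0.08 (-0.30 to 0.01) and -0.07 ± 0.08 (-0.22 to 0.09). With quantile normalization the differences were -0.01, 0.06 and 0.08, and in the authors' table they were 0.04, 0.11 and 0.07, with no call, so its sign was not settled.

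Fetub ran from 6.89 to 7.29 in controls and 7.27 to 7.68 in knockouts at ZT8, from 6.94 to 7.34 and 7.54 to 7.90 at ZT12, and from 7.09 to 7.31 and 7.69 to 7.81 at ZT16. The groups overlapped at ZT8 only, where 5 of 6 knockout arrays lay above all controls. The differences were 0.43 ± 0.08 (SE, limma adjusted p = 7e-05), 0.57 ± 0.08 (9.6e-07) and 0.56 ± 0.08 (1.46e-06), or 1.35-fold, 1.48-fold and 1.47-fold. These were the smallest called changes among the 10, and the spread within groups was small, with SDs of 0.0443 to 0.185.

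The neighbours and relatives of the fetuins on the list of 6 gave 5 tested genes, of which 2 were higher and 1 lower at ZT8, 1 and 1 at ZT12, and 2 and 2 at ZT16 (median log2 difference 0.19, 0.13 and 0.17). Kng2, a kininogen gene, was higher by 0.54 ± 0.08 (SE), 0.70 ± 0.08 and 0.60 ± 0.08. Kng1, its paralogue, was higher at ZT8 (0.23) and ZT16 (0.20) and stood at 0.13 at ZT12. Probes for such near-identical genes can share signal. Spp2, a secreted bone matrix protein related to the cystatins, fell by 0.62, 0.69 and 0.80, and Cst3, cystatin C, was lower at ZT16 (-0.18) and stood at -0.08 and -0.04 before.

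Other secreted liver factors changed in both directions. All 27 listed were tested, with 8 higher and 8 lower at ZT8, 7 and 9 at ZT12, and 9 and 9 at ZT16. The median log2 difference was 0.08, 0.04 and -0.02. Igfbp1, an insulin-repressed binding protein for insulin-like growth factors, rose by 4.05 ± 0.47 (SE), 5.60 ± 0.47 and 5.30 ± 0.47, and Igfbp2, a related binding protein, by 2.69, 2.83 and 3.17. Tsku, the secreted protein tsukushi, fell by 0.80 ± 0.22, 1.87 ± 0.22 and 2.77 ± 0.22.

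**Figure D4:**
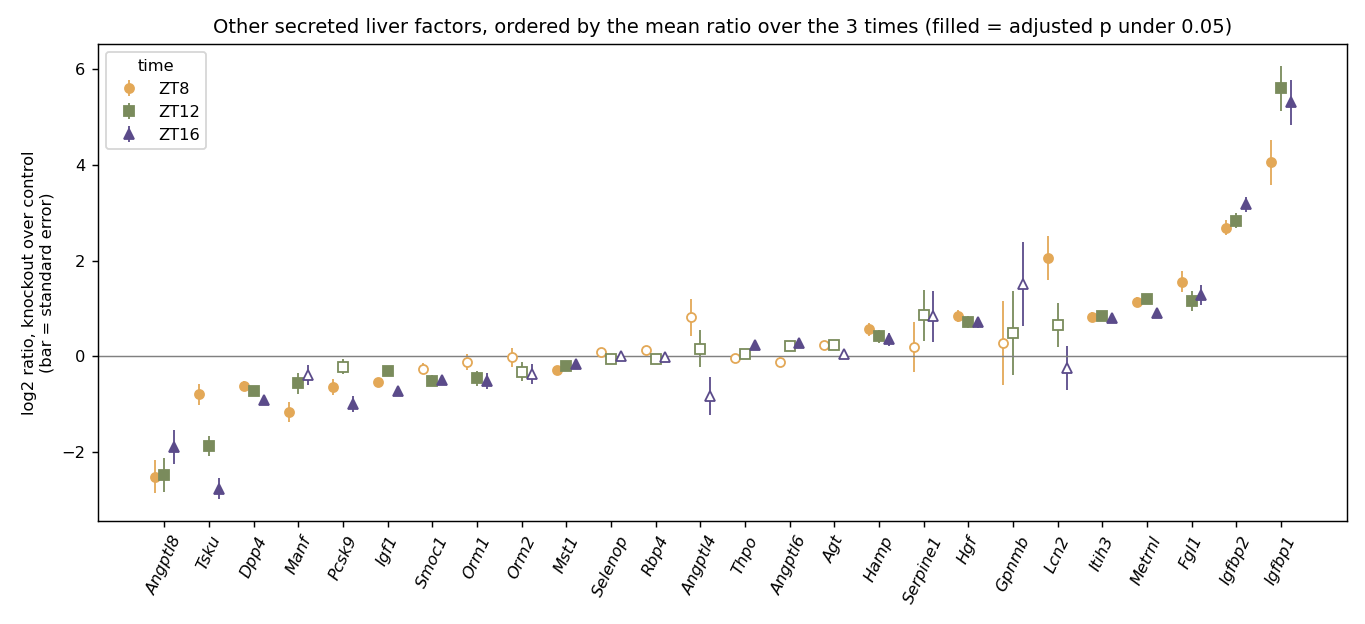
Log2 ratio of knockout over control with standard errors (vertical axis) for other secreted liver factors, ordered by their mean ratio over the 3 times. Filled symbols are called, with Igfbp1 (4.05 to 5.60) and Igfbp2 (2.69 to 3.17) at the high end and Angptl8 (-2.51, -2.48 and -1.90) and Tsku (-0.80 to -2.77) at the low end.

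Receptors proposed for these hepatokines were measured in liver for 8 of 12 genes listed, with 3 higher and 3 lower at ZT8, 4 and 1 at ZT12, and 1 and 1 at ZT16. The ZT16 count lay below the 39.9% of all genes called at that time. Among these receptors are Klb, Acvr1b, Acvr2a and Acvr2b, given above. FoxO targets, among them genes that insulin is known to repress, gave 5 higher and 3 lower of 10 at ZT8, 6 and 2 at ZT12, and 6 and 3 at ZT16, the targeted gene Insr being among the lower, with a median log2 difference of 0.48, 0.97 and 1.05. Irs2, an insulin receptor substrate, rose by 2.30 ± 0.29 (SE), 3.65 ± 0.29 and 3.14 ± 0.29, and Ppargc1a, a transcriptional coactivator, by 2.19 ± 0.19, 2.20 ± 0.19 and 1.89 ± 0.19.

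The genes whose 6 group means lay closest to those of a hepatokine were found among 17898 candidates by the root mean square of the differences after centring. For Fst these were Isyna1 (0.325), Igfbp2 (0.346) and Tff3 (0.353), all higher in the knockouts. For Inhbe they were Leap2 (0.51), Nat8 (0.579) and Dct (0.612), for Inhbc Klk1b3 (0.176), Egfbp2 (0.178) and Klk1b8 (0.179), and for Inhba Kcnk5 (0.116), NAP001637-001 (0.155) and Perp (0.172). The 3 kallikrein genes are near-identical copies, so their probes may read each other. Lect2 lay closest to Hao1 (0.0776), Bdh2 (0.108) and Slc6a9 (0.11), Enho to Uap1l1 (0.221), Dnajc12 (0.227) and Msmp (0.235), and Gdf15 to Slpi (0.301), Cdpf1 (0.388) and Crip2 (0.394).

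Hao1, a glycolate oxidase of the liver, was closest of all these, with genotype differences of -1.49, -1.58 and -2.01 beside -1.32, -1.55 and -2.01 for Lect2. Leap2, which codes for a liver peptide that antagonises the ghrelin receptor, differed by -3.36, -4.77 and -3.66 beside -4.22, -5.00 and -4.60 for Inhbe. Likeness over 6 group means is a description only.

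The 3 wash batches each held 1 to 3 arrays of a group, and the genotype difference was also taken within each. Over the 3 batches and 3 times the within-batch difference ran from 2.64 to 3.91 for Fst, from -5.57 to -3.14 for Inhbe, from -2.74 to -1.36 for Inhbc, from -2.70 to -0.56 for Inhba, from -2.36 to -1.15 for Lect2, from 0.76 to 3.21 for Enho and from 0.26 to 0.71 for Fetub. For Fgf21 and Gdf15 at ZT12 it ran from -2.79 to -2.12 and from 2.29 to 2.92. At ZT16 it ran from -1.35 to 0.25 for Fgf21 and from -2.19 to 2.25 for Gdf15, and at ZT8 from -1.49 to -0.55 and from -0.60 to 1.40, so the differences of these 2 genes that were not called were also uneven between batches.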

How the data were processed

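Per the labels, Cy3-labelled liver RNA (200 ng) was read on 1-colour Agilent SurePrint G3 arrays, and per the submitters' processing notes Feature Extraction 10.10.1.1 and limma were used. The deposited scanner files give spot intensity, per the file headers, with flags for signal well above background, saturation and outliers as other values of 0 or 1. The authors' deposited table of log2 values for 32801 probes is quantile normalized, since its sorted columns were identical, and served as an alternative; how it was made is not given in the sources used here.

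Each array's log2 processed signal was lowered by its 75th percentile (control spots left out). Outlier spots were left out, spots of a probe averaged, and probes required to be well above background on 6 or more of 36 arrays. This left 34769 probes, of which 91 lacked a value. A gene was read by its brightest probe, with names through RefSeq accessions (32994 probes matched, 1535 with another name). Arrays hold no counts, so their number limits precision.

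Group means with wash batch as a fixed effect were fitted with limma 3.58.1 in R 4.3.3, and p-values were adjusted by Benjamini-Hochberg over 23054 genes within each comparison. The fit was tested on simulated data. The members and gene lists were chosen with earlier results of these data known. Named, beside the 10 genes, are, per list, the 4 genes at most that had the lowest p in a genotype comparison, and the 3 genes nearest by group means to each called hepatokine whose means span at least 1 and that is well above background on all arrays. Values of some listed genes are not reported here, although the counts include them. Alternatives changed the background correction, scaling, filter, probe choice, covariates, weights, groups fitted, input table and arrays, 1 at a time. Probe positions were not tied to exons, as the files use an older build than the reference.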

Additional observations from a re-analysis of the deposited data

Results flagged for a closer look

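In the ZT12 knockouts, Lect2 in replicate 4 was 3.85 on the log2 scale, below the other 5 arrays by more than Dixon's 95% limit for 6 values allows. It was the 1 such case among 60 groups of 10 genes, where chance gives about 3. The genotype effect at ZT16 minus that at ZT8 was -0.69 for Lect2 and 1.53 for Enho, and both differences passed the limma test of the difference itself (adjusted p = 0.0147 and 0.0138).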

How the results depend on the processing

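Over 387 genotype values of the 10 genes under other settings, 382 kept their side of the threshold, 1 lost its call and 4 gained one. Over 1080 with 1 array left out these were 1071, 4 and 5. The sign changed in 5 values of Ahsg, never called, with quantile normalization (ZT12 and ZT16) and in the authors' table (each time), and in no other. Counts called for genotype at ZT8, ZT12 and ZT16 stayed within 1.5 times in every setting. The cause of the other changes was not tested.

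Counts of the 10 genes called over time were less stable. From ZT8 to ZT12 in controls (2) they were 0 without a filter on dim probes and with slide as a fixed block, 1 without wash batch and with the all-array filter, which drops Fgf21, and 0 to 2 with 1 array left out. From ZT8 to ZT12 in knockouts (4) they were 0 with only the groups compared, and 2 to 5 with 1 array left out. From ZT12 to ZT16 they were 0 without wash batch, with only the groups compared and with slide as a fixed block in controls (1; 0 to 2 with 1 array left out), and 0 with only the groups compared in knockouts (1). From ZT8 to ZT16 they were 1 with only the groups compared and with the all-array filter in controls (2), and 2 without a filter and with slide as a fixed block in knockouts (4; 2 to 4 with 1 array left out). For the ZT16 minus ZT8 genotype effect (2) quantile normalization gave 1, where Lect2 was at -0.57 (adjusted p = 0.0679). The F test (2) gave 4 with array weights, 0 without a filter, 1 with quantile normalization, slide as a fixed block and the authors' table, and 0 to 3 with 1 array left out.

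Replicate numbers did not pair the arrays (same-number correlations of -0.16 to 0.15, 5 of 18 pairs best with their own number). With a replicate block the counts were 1 from ZT8 to ZT12 in controls, 2 from ZT8 to ZT16 in knockouts and 1 in the F test.

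Over all genes, fitting only the groups compared called 618 from ZT8 to ZT12 (3048 otherwise), 1684 from ZT12 to ZT16 (2900) and 4362 from ZT8 to ZT16 (6662) in knockouts, and 328 from ZT12 to ZT16 in controls (834; 339 with slide as a fixed block, 494 without a filter, and 436 to 545 without 1 of 6 arrays: replicates 1, 4 and 6 at ZT12 and 2, 3 and 6 at ZT16). Array weights called 4034 for the ZT16 minus ZT8 effect (2248) and 3711 in the F test (1951; 1274 without a filter, 3006 without replicate 3 of the ZT8 knockouts). Receptor and SMAD counts fell from 10 to 6 at ZT8 and from 5 to 3 at ZT16 with the mean of all probes, and at ZT8 also with only the groups compared. ATF4 target counts fell from 7 to 4 at ZT12 and from 3 to 1 at ZT8 with only the groups compared, the latter also without replicate 2 of the ZT8 knockouts, and rose from 3 to 5 at ZT8 with quantile normalization and in the authors' table. PPARα target counts fell from 11 to 7 at ZT8 with only the groups compared. Proposed receptor counts fell from 6 to 3 at ZT8 and from 2 to 1 at ZT16 with the mean of all probes, and rose to 4 at ZT16 with array weights and without replicate 6 of the ZT16 controls. Fetuin relatives rose from 2 to 4 at ZT12 with array weights and in the authors' table.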
